A study of Mus musculus with 4 samples.

Results

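Outside the large receptor, immunoglobulin and enzyme families of the mouse genome, 364 gene promoters carried high histone H3 lysine 9 dimethylation (H3K9me2) in vascular smooth muscle cells (VSMCs) of the aortic media. They included genes known from placenta, epidermis, sensory neurons, vomeronasal organ, germ cells, immune cells, brain, liver and gut, beside pseudogenes, unnamed genes and broadly expressed genes. A list of placental and trophoblast genes, made by symbol and not wholly placental, held 35 promoters. Of these 15 were members, as were 22 of 51 promoters of the epidermal cornified envelope. The members were chosen by the measured values themselves: a promoter is a member where the H3K9me2 ChIP reads of both experiments, divided by the input reads of both, give 0.8 or more. Gene symbols of named families were left out, among them olfactory and vomeronasal receptors (Olfr, Vmn), predicted genes (Gm), microRNAs, immunoglobulin and T cell receptor segments, zinc finger genes, cytochromes and solute carriers. The cut-off was met by 1630 of 26354 promoters (6.19%), of which 1266 belonged to these families. The other 364 were 2.24% of the 16278 promoters outside the families. Because the ratio chose them, their ratios are given as a description with no test.

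H3K9me2 is a repressive histone mark. It is written mainly by the methyltransferases EHMT2 and EHMT1, often over broad stretches of facultative heterochromatin, where it accompanies genes of other lineages that a differentiated cell keeps silent. VSMCs form the contractile media of the aorta and express contractile genes such as Myh11 and Acta2. CpG islands, which are rich in C followed by G, mark the promoters of most broadly expressed genes, whereas many promoters of tissue-restricted genes are poor in CpG.

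The libraries came from male C57Bl/6J mice with no transgene or treatment named. The aortic medial layer was taken directly from tissue after the adventitia and endothelium had been removed by hand, and was fixed without culture. The age of the mice and the number pooled per library are not given in the sources used here. There were 2 independent experiments, v102 and v134, each with 1 H3K9me2 ChIP and 1 input library, and all 4 libraries were used. Summed over the table, the ChIP libraries held 162233 (v102) and 229605 (v134) reads and the inputs 619100 and 1084350 reads within 1 kb of transcription start sites, giving table-wide ratios of 0.262 and 0.212. These are sums over promoters and not library depths. The median promoter had 4 and 5 ChIP reads, so single promoters are imprecise, and the intervals below cover counting error only. At the control loci, Actb, a housekeeping gene, had 1 ChIP and 84 input reads in all (0.0119), and Magea2, a silent germline gene, had 10 and 22 reads (0.455). The 10 smooth muscle marker promoters had a median ratio of 0.0772, from 0 of 60 input reads at Myh11 to 0.612 at Smtn, a contractile gene with 49 ChIP and 80 input reads. The 6 endothelial markers had a median of 0.268, the 6 leukocyte markers in the table one of 0.291 (Ptprc highest at 0.730) and the 5 fibroblast markers one of 0.125. A promoter mark is not expression, so these levels do not measure the share of other cells in the media.

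The sequence just upstream of the start shows the kind of promoter most members had. The following runs are the 200 bases before the RefSeq transcription start in GRCm38.p6, written 5′ to 3′ on the gene's strand, with each CG dinucleotide in capitals. The first 4 stand for member groups described below, the placental Ctsm at chr13:61541840-61542039 (minus strand) and Ceacam11 at chr7:17971967-17972166 (plus strand), the sensory receptor Mrgprb8 at chr7:48388326-48388525 (plus strand) and the epidermal Lce1c at chr3:92679047-92679246 (plus strand).
Ctsm: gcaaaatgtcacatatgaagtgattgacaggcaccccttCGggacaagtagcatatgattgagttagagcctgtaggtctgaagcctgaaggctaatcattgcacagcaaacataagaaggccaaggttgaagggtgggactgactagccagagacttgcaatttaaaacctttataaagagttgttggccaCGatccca
Ceacam11: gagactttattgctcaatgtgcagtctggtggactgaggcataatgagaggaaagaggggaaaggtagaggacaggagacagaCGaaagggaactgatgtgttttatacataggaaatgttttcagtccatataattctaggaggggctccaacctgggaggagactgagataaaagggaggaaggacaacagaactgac
Mrgprb8: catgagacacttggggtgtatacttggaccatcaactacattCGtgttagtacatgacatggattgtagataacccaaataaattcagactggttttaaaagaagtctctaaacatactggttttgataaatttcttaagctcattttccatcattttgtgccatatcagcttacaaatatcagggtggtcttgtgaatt
Lce1c: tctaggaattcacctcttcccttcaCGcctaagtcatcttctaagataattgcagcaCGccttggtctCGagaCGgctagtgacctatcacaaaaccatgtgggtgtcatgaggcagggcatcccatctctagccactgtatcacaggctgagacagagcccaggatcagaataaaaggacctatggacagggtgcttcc
The Ctsm, Ceacam11, Mrgprb8 and Lce1c sequences held 2, 1, 1 and 4 CG dinucleotides. They are set beside Peg12 at chr7:62464511-62464710 (minus strand) and Dhx9 at chr1:153487661-153487860 (minus strand), members with CpG-rich windows named after their values were seen, and beside Acta2 at chr19:34255374-34255573 (minus strand), the smooth muscle actin gene, which was not a member and whose RefSeq start lies 217 bases from the start used for its position here.
Peg12: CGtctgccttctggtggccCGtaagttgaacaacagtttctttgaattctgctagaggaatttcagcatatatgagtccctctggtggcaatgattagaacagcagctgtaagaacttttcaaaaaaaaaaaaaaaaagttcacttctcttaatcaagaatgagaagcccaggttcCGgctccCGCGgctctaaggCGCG
Dhx9: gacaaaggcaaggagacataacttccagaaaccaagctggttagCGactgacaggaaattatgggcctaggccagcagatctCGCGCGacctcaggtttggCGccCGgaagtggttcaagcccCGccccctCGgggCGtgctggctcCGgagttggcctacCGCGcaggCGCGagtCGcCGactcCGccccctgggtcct
Acta2: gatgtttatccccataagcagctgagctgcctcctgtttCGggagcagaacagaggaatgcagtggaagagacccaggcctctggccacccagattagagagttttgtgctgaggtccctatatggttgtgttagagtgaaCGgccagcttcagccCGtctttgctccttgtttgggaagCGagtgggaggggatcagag
Peg12, Dhx9 and Acta2 held 7, 17 and 4 CG dinucleotides in these 200 bases.

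At the 364 members the summed ChIP reads divided by the summed input reads had a median of 0.962 and ran from 0.8 to 2.63, against a median of 0.162 and a 75th percentile of 0.343 over the whole table. The ratio was 1 or more at 158 members, above 1.5 at 19 and 2 or more at 6, and it was under 0.9 at 131. The median member had 21 ChIP and 17 input reads in v102 and 29 and 34 in v134. Members thus rested on somewhat fewer input reads than the table at large, where the median was 20 and 37, and 120 members (33.0%) had at least 20 reads in each input against 53.1% of all promoters. The lower limit of the Wilson 95% interval, computed from the reads that chose the members, ranged from 0.454 to 1.70. It reached the table's 90th percentile (0.648) at 176 members and the cut-off itself at 69. Just inside the cut-off, at 0.8, were Agbl4, Fbxw2, Sprr2e and Vwc2l, among others. Just outside it were Btrc (0.797), AF357341, the pro-opiomelanocortin gene Pomc, Skint9 and Ang2 (0.795), whose intervals overlapped those of the promoters inside almost entirely. The edge of the set is therefore a line through a continuous range of values.

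The split of the reads between the experiments was not fixed by the rule. Each promoter was ranked in each experiment alone by the log2 ratio of ChIP to input, each library scaled by its table total, with a pseudocount of 1 read. Of the 364 members, 360 (98.9%) lay in the top quartile of all promoters in both experiments and 301 (82.7%) in the top decile of both, against 17.7% and 5.99% of the whole table and 8.97% of promoters outside the families in both top quartiles. Since the ranked values add up to the one that chose the members, a high share here is partly given by the choice. In both experiments the ratio was at least 2-fold above the table-wide ratio at 355 members (97.5%), against 12.9% of all promoters. The unscaled ratio reached 0.8 in both experiments at 184 members, in v102 alone at 148 and in v134 alone at 32. Scaled by the library totals, v102 was the higher experiment at 225 members and v134 at 139. Scaled by the median promoter, an alternative chosen after seeing the data, v102 was higher at 173 and v134 at 191, so neither experiment is given as the higher.

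A choice made in 1 experiment and read in the other does not share reads with the value it is read by. With the same share of the table taken in v102 alone (a ratio of 1.05 or more), 414 promoters outside the families were chosen, and 377 of them (91.1%) lay in the top quartile of v134, where 15.4% of promoters outside the families lay. Their median scaled ratio was 5.09-fold above the table-wide ratio in v102, which chose them, and 3.08-fold above it in v134. In the other direction 383 promoters were chosen in v134 alone (0.727 or more), and 347 (90.6%) lay in the top quartile of v102, against a background of 15.3%. The median there was 4.05-fold in v134 and 3.82-fold in v102. The top decile of the experiment not used held 58.7% of those chosen in v102 and 64.0% of those chosen in v134. The set chosen in v102 held 254 of the members (69.8% of the members and 61.4% of that set), and the set chosen in v134 held 282 (77.5% and 73.6%). The plot of the 2 experiments shows the members as a compact group at the upper right.

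**Figure D1:**
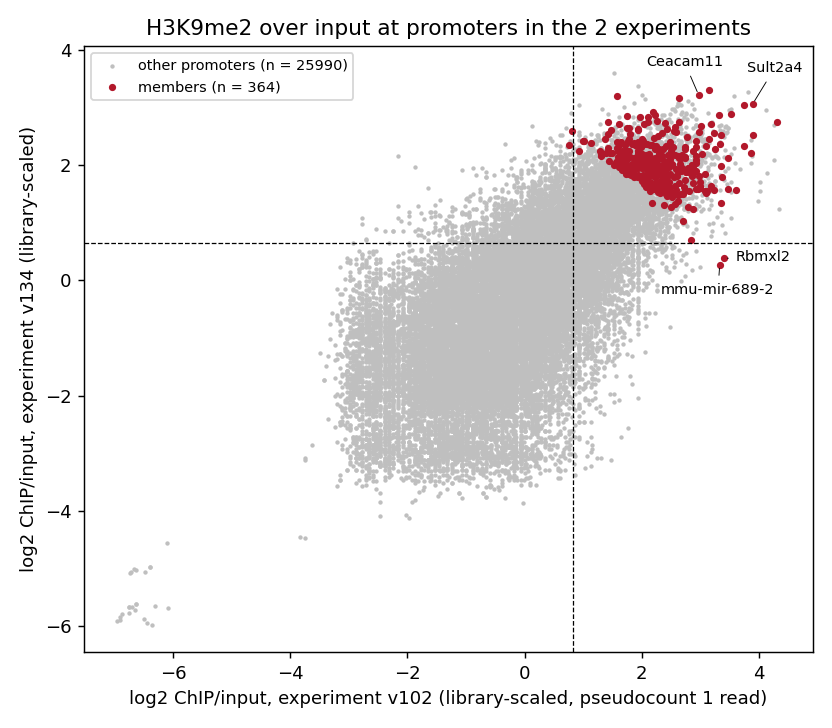
Each point is a promoter, placed by its log2 ratio of ChIP to input reads in v102 (x axis) and in v134 (y axis), with each library scaled by its total and a pseudocount of 1 read; red points are the 364 members, grey points the other 25990 promoters, and dashed lines the 75th percentile in each experiment. All but 4 members lie to the upper right of both lines, and mmu-mir-689-2 and Rbmxl2 lie below the line of v134.

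Across all promoters the log2 ratios of the 2 experiments had a Spearman correlation of 0.69 over 26354 promoters, a description across promoters that share libraries and base composition. Within the members it was -0.25. Choosing on the sum of the experiments lowers this value, and how much of it comes from the choice was not tested. The median absolute difference between the experiments was 0.51 on the log2 scale at the members, and the mean squared difference was 1.57 times what counting error alone gives.

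The difference between the experiments was tested at each promoter by an exact conditional test of its 4 counts (two-sided), with the null set by the library totals and Benjamini-Hochberg adjustment over all 26354 promoters. It compares these libraries and takes account of counting error only. It called 5 promoters (0.019%), of which 3 were members. At mmu-mir-689-2, a microRNA row that the spelling of its name kept outside the microRNA family, v102 had 136 ChIP and 51 input reads and v134 had 22 and 89, so the ratio was 8.72 times higher in v102 relative to the totals (adjusted p = 1.3063e-11, exact test). Rbmxl2, a testis retrogene of the RNA-binding protein gene Rbmx, had 46 and 16 reads in v102 and 7 and 28 in v134 (9.29 times higher in v102, adjusted p = 0.0265, exact test). Neither of these lay in the top quartile of v134, and their membership rests on v102. The third, Sfi1, a centrosome gene, had 1283 ChIP and 786 input reads in v102 and 1420 and 1550 in v134, far more than any other member, and the difference was 1.44 times (adjusted p = 5.28e-06, exact test). Its input counts stood about as far above the median member as its ChIP counts, and its window overlapped another listed promoter. The null was 1.24 from the library totals and 1.53 from the median promoter, a shift of 0.30 on the log2 scale, and against the latter the adjusted p of Sfi1 was 0.687 and that of Rbmxl2 0.210, leaving mmu-mir-689-2 alone. At an unadjusted p under 0.05 were 36 members (9.89%), 31 of them higher in v102 by the library totals, against 6.34% of the table. The next members by p, with adjusted p of 0.300 and above by the exact test, were Epha6, snR78, CT025645.1, Ubtfl1, the cone channel gene Cnga3, Tpbpa and Naalad2. The other members outside a top quartile were named after their values were seen: Bsph1, a sperm-binding protein gene with 3 ChIP and 8 input reads in v102 and 25 and 23 in v134, and Uhmk1, a kinase gene with 10 and 23 reads and then 27 and 21. Both were outside the top quartile of v102.

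Members were sorted by 55 lists of gene symbols for functions and tissues, of which 43 held a member, and 237 of the 364 members were in at least 1 list. In the counts by pooled tissue group, the placental, chemosensory and skin groups had the largest shares of members. The group named chemosensory pooled 4 lists. Its members were 10 Mas-related receptors, 4 formyl peptide receptors, 4 androgen-binding proteins and 2 major urinary proteins. Its share is therefore not that of chemosensory receptor genes. The collagen and matrix (90 promoters), skeletal and cardiac muscle (62), eye and lens (62), phospholipase (91) and mitochondrial (30) lists held none. The share of all promoters outside the families, 2.24%, is the value to read each of these shares against, and in a short list a count of 0 or 1 is near it.

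**Figure D2:**
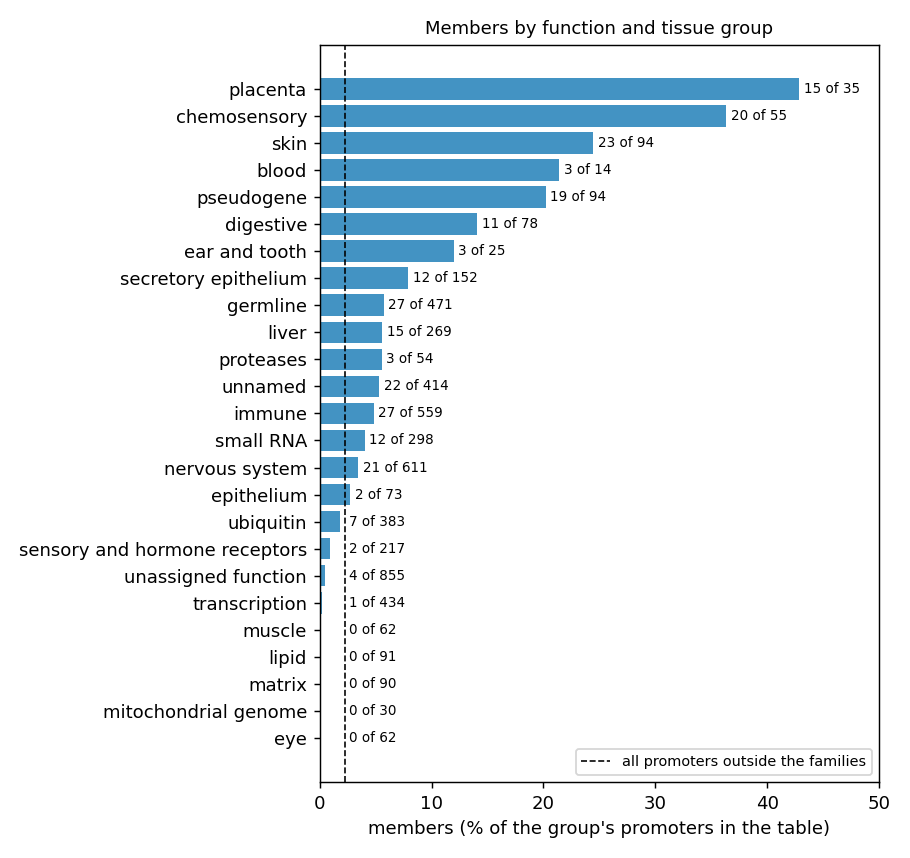
Bars give, for each function and tissue group, the members as a percentage of the group's promoters in the table (x axis), with the counts beside the bars and a dashed line at the 2.24% of all promoters outside the families. Placenta (15 of 35), chemosensory (20 of 55) and skin (23 of 94) have the longest bars. The transcription factor list (1 of 434) has nearly none, but it does not hold every such gene. The chemosensory group pools Mas-related and formyl peptide receptors with major urinary, odorant-binding and androgen-binding proteins.

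The placental list had the highest share of the pooled tissue groups. It held cathepsins that rodents express in the placenta, carcinoembryonic antigen genes (Ceacam) and trophoblast-specific proteins. Of its 35 promoters 15 (42.9%) were members, with a list median of 0.711. The list was made by symbol, and not all of its genes are placental. Its member Plac1l is an older name of Oosp2, an oocyte-secreted protein gene. Its Ceacam genes included ones not of trophoblast, such as Ceacam16 (0.259) and Ceacam20 (0.0968), which were not members. Summed over all 35 promoters, members or not, the ratio was 0.901 in v102 and 0.586 in v134, and 22 of the 35 lay in the top quartile of both experiments. The strongest was Ceacam11, with 38 ChIP and 18 input reads in v102 and 56 and 28 in v134, a ratio of 2.04 (95% interval 1.44 to 2.90). The 2 experiments gave it nearly equal ratios, 2.11 and 2.00. Tpbpa, a marker of spongiotrophoblast, had 37 ChIP and 9 input reads in v102 and 42 and 43 in v134, a ratio of 1.52. Its ratio was 4.11 in v102 and 0.977 in v134, which did not pass the test between experiments (adjusted p = 0.55, exact test). Ctsm had 31 and 19 reads in v102 and 49 and 52 in v134 (1.13, interval 0.820 to 1.55), and Ceacam14 had 32 and 26 and then 39 and 37 (1.13). Ceacam12 stood at 1.06.

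The placental cathepsins were also the longest run of neighbouring members. Taking the listed promoters with a position in order along each chromosome, 10 runs held 4 or more members with no other listed promoter between, and these runs held 49 of the 335 members that could be placed. On chromosome 13 the starts of Tpbpa, Ctsj, Ctsq, Ctsr, Cts6, Cts8, Cts7, Ctsm and Cts3 followed each other over 628 kb (chr13:60941984-61570127, GRCm38), with ratios from 0.846 to 1.52. Summed over the 9 promoters the ratio was 1.37 in v102 and 0.878 in v134. The 10 listed promoters around the run had a median of 0.572, from 0.783 at Tpbpb on one side to 0.0847 at Fbp2, a gluconeogenic enzyme gene, on the other. Ctsl, the broadly expressed cathepsin of the same family, had 4 ChIP and 67 input reads (0.0597). On chromosome 7, Ceacam11, Ceacam13, Ceacam12 and Igfl3 formed a run whose surroundings were also high, with a median of 1.22 and 7 of 10 flanking promoters at the cut-off, among them Ceacam5, Ceacam14 and genes of the excluded pregnancy-specific glycoprotein family.

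Epidermal genes made a second clustered group. The cornified envelope list held late cornified envelope (Lce), small proline-rich (Sprr) and filaggrin-like genes, whose proteins are cross-linked into the surface of the skin. Of its 51 promoters 22 were members (43.1%), the list median was 0.686, and 35 of the 51 (68.6%) lay in the top quartile of both experiments. All 22 members lay within the epidermal gene cluster of chromosome 3, where 44 of the list's promoters were placed. Lce3a had 39 ChIP and 30 input reads in v102 and 38 and 48 in v134, a ratio of 0.987. Lce3c had 35 and 18 and then 35 and 47 (1.08), and Sprr2i, Sprr2f and Flg2 stood at 1.06, 1.00 and 1.02. Ivl, which encodes the envelope protein involucrin, was near the edge with 11 and 15 reads in v102 and 26 and 31 in v134 (0.804). The cluster was not high throughout. Its promoters that were not members included Lor (0.262), Flg (0.40), Rptn (0.420) and Hrnr (0.180). The neighbours Lce1b, Lce1a2, Lce1c, Lce1d, Lce1e and Lce1f, spanned 63.4 kb with ratios from 0.821 to 1.29, and their 10 flanking promoters had a median of 0.730. The S100 list, small calcium-binding proteins of which several are epidermal, had 0 members of 17 promoters and a list median of 0.107, and the desmosome and epidermal lipid list had 1 of 26, the desmoglein gene Dsg1b at 1.04. Both counts are near the background share.

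Mas-related receptors (Mrgpr), which act in itch and in mast cells, had 10 members of 19 promoters (52.6%), a list median of 0.812 and 13 of 19 promoters in the top quartile of both experiments. Mrgprb8 had 30 ChIP and 16 input reads in v102 and 34 and 44 in v134 (1.07). The mast cell receptor Mrgprb2 had 21 and 18 and then 40 and 52 (0.871), Mrgprb3 stood at 1.06 and Mrgprx2 at 0.948. They lay in 2 runs on chromosome 7, Mrgpra6, Mrgpra9, Mrgpra1, Mrgpra2b and Mrgpra3 over 396 kb and Mrgprb8, Mrgprb1, Mrgprx2, Mrgprb2 and Mrgprb3 over 255 kb. Between the runs, Mrgpra4, Mrgprx1, Mrgprb5 and Mrgprb4 had ratios of 0.522 to 0.75, and past the second run the next 5 promoters had ratios of 0.351 (Zdhhc13), 0.326, 0.0986, 0.0519 and 0.0506 (Nav2). Receptors of the list that lay far from these runs on chromosome 7 were low and not members. They were Mrgprd (0.279), Mrgprf (0.160), Mrgpre (0.118) and Mrgprg (0.0423).

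Formyl peptide receptors, of which the Fpr-rs members are expressed in vomeronasal neurons, had 4 members of 7 promoters, Fpr-rs3 (1.00), Fpr-rs4 (1.11), Fpr-rs6 (0.829) and Fpr-rs7 (1.09). Fpr-rs4 had 19 ChIP and 17 input reads in v102 and 33 and 30 in v134, close to the same ratio in each. On chromosome 17, Fpr-rs7 and Fpr-rs6 stood in a run with 3 vomeronasal receptor genes of the excluded family. The list of androgen-binding secretoglobins and exocrine peptides had 4 members of 11 promoters. All 4 were androgen-binding proteins of saliva and tears, Abpz (1.16), Abpe (1.13), Abph (1.04) and Abpg (0.931). The windows of Abpe and Abph overlapped, so their values share reads and are not separate. Abpa, another of these, stood at 0.667, and the list also held other genes such as Scgb1c1 (0.0333). The major urinary and odorant-binding list had 2 members of 18.

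**Figure D3:**
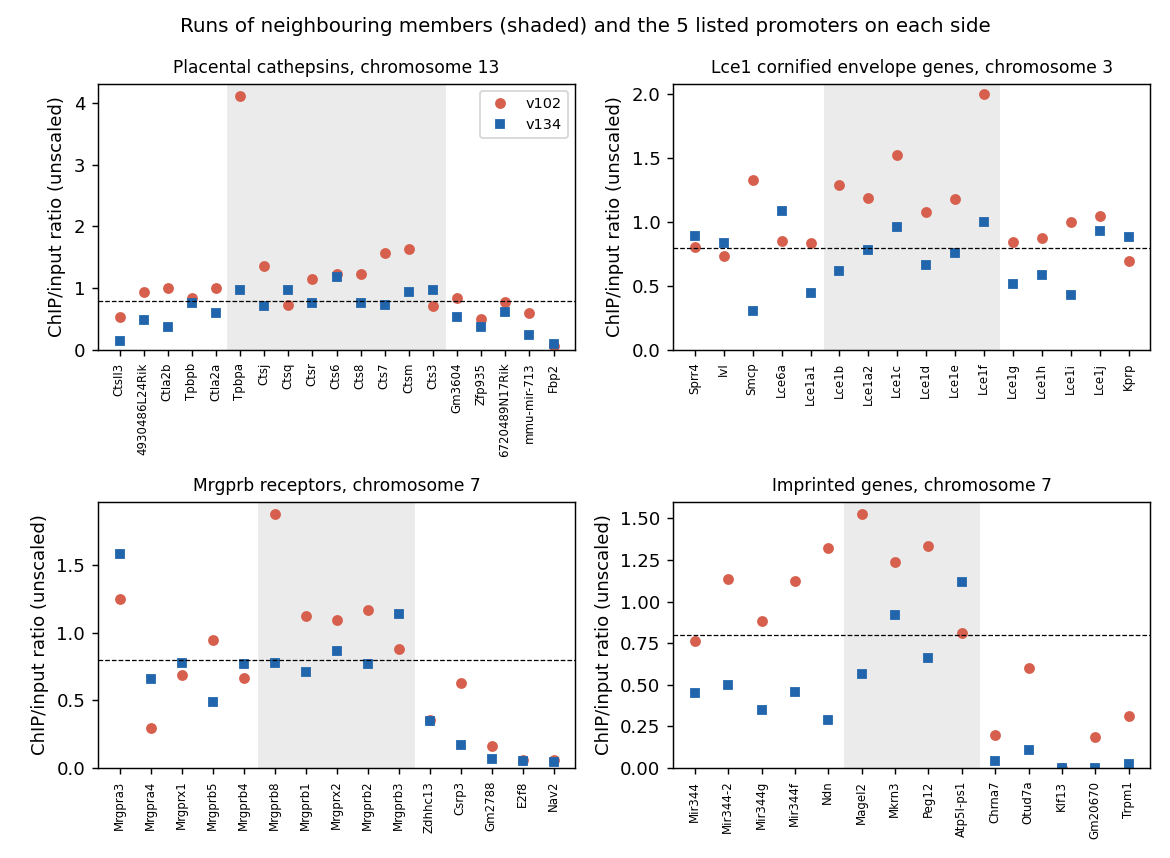
Unscaled ChIP/input ratio (y axis) of neighbouring promoters in chromosome order (x axis, evenly spaced), with v102 as circles and v134 as squares, for 4 runs of members (grey) and the 5 listed promoters on each side; the dashed line is the cut-off of 0.8 on the summed ratio. The Mrgprb run falls off on one side to Nav2 and the imprinted run to Klf13, where no ChIP reads were counted, whereas the Lce1 run is flanked by other high epidermal promoters.

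The germ cell lists gave 27 members of 471 promoters (5.73%), Magel2 of the imprinted domain among them. The oocyte and early embryo list had 10 members of 63 promoters (15.9%) and 32 of 63 in the top quartile of both experiments. Pramel7, a gene of the preimplantation embryo, had 43 ChIP and 25 input reads in v102 and 65 and 68 in v134 (1.16), Nlrp4d had 38 and 27 and then 52 and 49 (1.18), and Nlrp5, a maternal-effect gene of the egg, had 39 and 22 and then 43 and 42 (1.28). Pramel6 (0.911) and Tcl1 (0.970) were members too. The testis and sperm list had 10 of 300 (3.33%), a share near the background. Its members included Smok2a, a sperm motility kinase gene with 49 and 27 reads in v102 and 57 and 48 in v134 (1.41), Pgk2, the sperm phosphoglycerate kinase, with 34 and 13 and then 40 and 39 (1.42), Actl7b (0.806), Izumo3 (0.833) and Rnf148 (0.90). The list of cancer-testis families of the sex chromosomes had 4 of 44, Nxf2, Mageb16, Rhox13 and Magel2, the last a Mage-family gene that lies on chromosome 7.

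After the values were seen, 26 further members were recognised as sperm, testis or oocyte genes, with ratios of 0.804 to 1.79. They were picked from the members alone, so no share of all such promoters stands beside their number, and they add no support to the lists. Several of these are retrogenes, intron-poor copies of a broadly expressed parent that are used in sperm. Aldoart1, a retrogene of aldolase A, had 42 ChIP and 17 input reads in v102 and 42 and 30 in v134 (1.79, interval 1.25 to 2.55). Promoters named as pseudogenes were members in 19 of 94 cases (20.2%), with 44 of the 94 in the top quartile of both experiments, among them Eif3s6-ps2 (2.22), Trp53-ps (1.55), Rps24-ps2 (1.48), Rpl27a-ps2 (1.15) and Rpl31-ps13 (0.957). Their median input of 50 reads was close to the 51.5 of all members. How reads with more than 1 matching place in the genome were treated is not given in the sources used here, so values at near-identical copies such as these, and at the Sult2a, Lce1, Mrgpr, Dub and Sprr2 genes, are uncertain.

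In the lists grouped as digestive and liver, clusters of Reg, Sult2a and Hsd3b genes were members beside single genes elsewhere. The liver group takes in steroid, alcohol and conjugation enzymes by function, and not all of these, the Hsd3b genes among them, are genes of liver. The pancreatic list had 7 of 24 promoters (29.2%), of which 5 were Reg genes, secreted lectins of pancreas and gut. Reg3a, Reg2, Reg1 and Reg3g formed a run on chromosome 6 over 88.2 kb with ratios of 0.879 to 1.11, and Reg3b (1.33) lay beside it. Of the 10 flanking promoters, which had a median of 0.360, the nearest beyond the Reg genes were Ctnna2 (0.355) on one side, and Lrrtm4 (0.152) and Gm4409 (0.672) on the other, 1594 and 1598 kb from the centre of the run. The insulin gene Ins1 had 33 ChIP and 23 input reads in v102 and 33 and 25 in v134 (1.38). Of the stomach and intestine list 4 of 54 were members, Retnlb, a goblet cell product with 41 and 19 and then 48 and 35 reads (1.65, interval 1.18 to 2.31), Muc16 (1.20), Retnlg (1.15) and Muc2 (0.924). The list was made by symbol, and Muc16 and Retnlg are not particular to the gut.

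In the list of steroid, alcohol and conjugation enzymes 13 of 188 promoters (6.91%) were members. Sult2a4, a hydroxysteroid sulfotransferase of liver, had the highest ratio of all members, 2.63 (interval 1.65 to 4.18), from 34 ChIP and 8 input reads in v102 and 29 and 16 in v134. Sult2a5, Sult2a4, Sult2a3 and Sult2a6 were neighbours on chromosome 7, as were the 3-beta-hydroxysteroid dehydrogenases Hsd3b5, Hsd3b2, Hsd3b6 and Hsd3b1 on chromosome 3, with ratios of 0.810 to 1.09 over 230 kb. The Hsd3b run stood out from its surroundings, where the 10 flanking promoters had a median of 0.159. Adh1, with 23 and 25 reads in v102 and 38 and 51 in v134 (0.803), was just inside the cut-off. Plasma protein genes were near the background, with 2 of 81 members, Cfhr3 and the C-reactive protein gene Crp. Kallikreins and trypsin-like proteases had 7 of 92, including Klk12 (1.09), Klk1b22 (1.05), Prss47 (0.842), Klk14 (0.839) and Try10 (1.02), and the milk, salivary and Bpif list had 4 of 30, Smr3a (1.05), Sval1 (0.889), Amy2a1 (0.833) and Bpifa1 (0.806).

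Immune genes gave 27 members of 559 promoters (4.83%), unevenly spread. Skint and butyrophilin-like genes, which act in skin T cell development, had 6 members of 20, and Skint2, Skint10, Skint6 and Skint5 were neighbours on chromosome 4 with ratios of 0.827 to 0.918. Skint5 had 21 ChIP and 20 input reads in v102 and 54 and 66 in v134 (0.872), and Skint1 and Skint3 stood at 0.870 and 0.860. Ms4a genes had 5 of 15, among them Ms4a4c (0.819), Ms4a6b (0.935), Ms4a13 (1.12) and Ms4a1, which encodes the B cell antigen CD20 (0.889). The MHC class I-like list had H2-M2 (1.41), H2-M9 (1.02) and H2-M11 (0.893) of 38. All 4 members from the Toll-like and NOD-like list were Nlrp genes of the oocyte, counted above. Interleukins had 2 of 83 and chemokines 1 of 58, near the background, and interferons (0 of 20), interferon-induced genes (0 of 53), the TNF family (0 of 32) and T cell receptor J, D and C segments (0 of 80) had none. Among the genes matched to no immune list, Pydc4 (0.885) and AI607873 (0.925) are older names of interferon-inducible genes of the Ifi200 family.

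In the nervous system lists 21 of 611 promoters (3.44%) were members, a share near the 2.24% of all promoters outside the families. Neurotransmitter receptors had 7 of 111. Gabra6, the GABA-A receptor subunit of cerebellar granule cells, had 24 ChIP and 19 input reads in v102 and 33 and 37 in v134 (1.02). The glycine receptor genes Glra2, Glra3 and Glra1 stood at 1.06, 1.04 and 0.889, the dopamine receptor gene Drd2 at 0.870 and the glutamate receptor gene Grin1 at 0.804. Neuronal adhesion and synapse genes had 9 of 202, led by Cntnap5a with 39 and 22 and then 40 and 38 reads (1.32), followed by Cntnap5c (0.893), Cadps (0.90), Cntnap2 (1.00) and Nkain2 (0.889). Ion channels had 5 of 234 (2.14%), at the background, namely Cnga3, Trpc7 (1.07), Kcnh7 (1.19), Cacng3 (1.00) and Kcnv1 (1.10), and neuropeptides had 0 of 64. Celsr3, an adhesion receptor of axon guidance, was the highest of 22 further neuronal or neuroendocrine members recognised among the members alone after the values were seen, with 41 and 16 reads in v102 and 25 and 20 in v134 (1.83, interval 1.22 to 2.74). The inner ear and tooth list had Oc90 (0.974), Odam (0.882) and Tmc2 (0.831) of 25.

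Of 14 globin and red cell promoters, 3 were members, all of them beta-type globin genes of the embryonic part of the cluster. Hbb-bh1 had 22 ChIP and 12 input reads in v102 and 34 and 44 in v134 (1.00), Hbb-bh2 stood at 0.868 and Hbb-y at 0.865, all on chromosome 7 and beside olfactory receptor genes.

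An imprinted domain on chromosome 7 gave another run. Magel2, Mkrn3 and Peg12, which are expressed from the paternal allele, lay next to each other and beside the pseudogene Atp5l-ps1 over 99.3 kb (chr7:62377010-62476306, GRCm38). Magel2 had 32 ChIP and 21 input reads in v102 and 21 and 37 in v134 (0.914), Mkrn3 had 26 and 21 and then 33 and 36 (1.04), and Peg12 had 36 and 27 and then 27 and 41 (0.926). Reads do not tell the alleles apart. The imprinted neighbours Snrpn, Ndn and Snurf were below the cut-off at 0.731, 0.698 and 0.673, Ndn with 33 ChIP reads in v102 and 11 in v134. Ube3a was at 0.232. On the other side of the run the next listed promoter, 786 kb from its centre, was Chrna7, a nicotinic receptor gene, with 6 ChIP and 66 input reads (0.0909). Further on, Klf13, a transcription factor gene, had none of either ChIP library against 43 input reads. The small nucleolar RNA genes Snord64 (0.860) and SNORD115 (1.23), which carry names from this domain, were also members, the second without a position here.

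Of the 434 promoters in the transcription factor list, which does not hold every such gene, 1 was a member, Nr1h2, a liver X receptor gene with 15 ChIP and 24 input reads in v102 and 43 and 43 in v134 (0.866). After the values were seen, and with no list of all such promoters to set them against, 23 members were recognised as broadly expressed, with ratios of 0.8 to 1.12, among them Telo2 (1.12), Aars, an alanyl-tRNA synthetase gene (1.12), Xpo6 (1.11), Tor1a (1.07) and Dhx9, an RNA helicase gene with 24 and 23 reads in v102 and 41 and 45 in v134 (0.956). Their lowest percentile among all promoters was 74.3 in v102 and 92.4 in v134. For 42 members neither a list nor a group named afterwards applied, including the highest by the lower interval limit, Igbp1b, a retrogene of Igbp1 with 55 ChIP and 15 input reads in v102 and 51 and 29 in v134 (2.41, interval 1.70 to 3.42), and Satl1 (2.04), Tpm3-rs7 (1.93), Dub1 (1.86), snR78 (1.76) and Heatr7b1 (1.24, from 396 ChIP and 320 input reads). The small RNA list had 12 members of 298, led by Y_RNA (1.32), SNORD19 and SNORD115 (1.23 each). That count was 19 when promoters were chosen without v102 and 8 without v134. The list, made by symbol, missed the small RNA rows snR78, named above and higher than these, ACA64 (0.894) and 5S_rRNA (0.828), so it does not count every such member. Unnamed clone and cDNA genes had 22 of 414, among them CU463325.1 (2.43), CT025645.1 (1.60), AY761185 (1.55) and BX255946.1 (1.37).

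Base composition and position, which the rule did not use, differed between the members and other promoters outside the families, given here as a description with no test. A position was found for 335 of 364 members. The window from 1 kb before to 1 kb after the start had a median GC content of 44.0% at members (quartiles 41.1% and 48.4%) against 52.8% at all promoters outside the families, and 39.1% at the family promoters at the cut-off. CpG dinucleotides occurred at 0.166 of the number expected from base content at the median member and at 0.549 outside the families. The share of members fell from 12 of 67 promoters (17.9%) under 35% GC to 132 of 1385 (9.53%) between 40% and 45% and 9 of 1999 (0.450%) at 60% or more. Since GC content also affects how well fragments are amplified and sequenced, and this was not tested, the ratio to input is the only correction made for it.

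**Figure D4:**
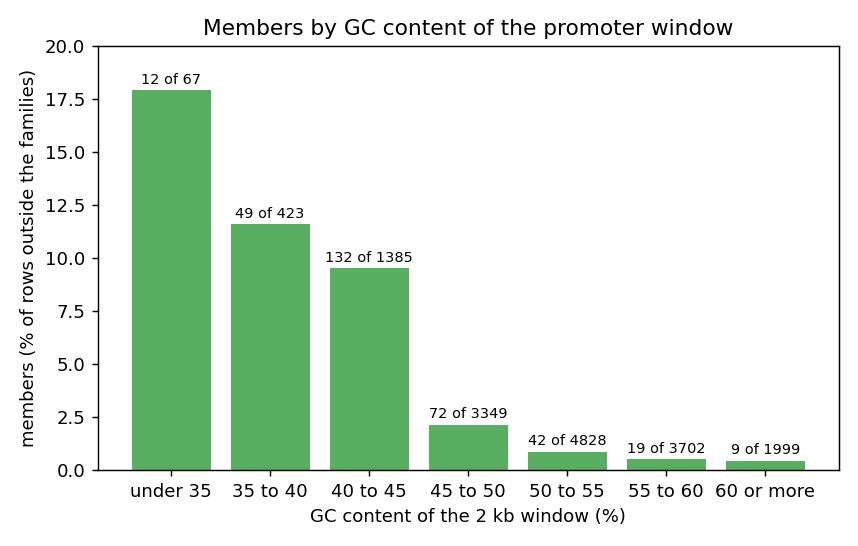
Bars give the members as a percentage of promoters outside the families (y axis) in bins of the GC content of the 2 kb window around the start (x axis), with counts above the bars. The share falls from 17.9% under 35% GC to 0.450% at 60% GC or more.

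CpG-rich members were few but present. A window with at least 50% GC and a CpG ratio of at least 0.6 was found at 27 members (8.06%) against 36.8% of promoters outside the families, and their median ratio was 0.939 against 0.963 at the other members. They included Celsr3, Drd2, Grin1, Cadps, Nkain2, Peg12, Rbmxl2, Dhx9 and Tor1a. Of these 27 genes, 15 (55.6%) had a further annotated start more than 1 kb away, against 95 (30.8%) of the other members and 62.5% of promoters outside the families.

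Members lay near other high promoters. Of 257 members with another listed promoter within 100 kb and outside the shared window, 89 (34.6%) had a nearest neighbour at the cut-off, against 5.23% of all promoters and 2.23% of promoters outside the families. The share was higher still at the family promoters at the cut-off, 401 of 846 (47.4%), so it is not particular to the members. The nearest neighbour of a member had a median ratio of 0.581, above the table's 75th percentile. Members that adjoined each other accounted for 104 of the 335 placed (31.0%). In 28 cases the high neighbour belonged to an excluded family. Windows that overlapped another listed promoter, and so shared reads with it, were found at 22 members (6.57%) against 19.8% of promoters outside the families. Leaving aside chromosome Y, with 2 of 6 promoters, members were most frequent on chromosomes 7 (61 of 1234 promoters, 4.94%), 3 (37 of 819, 4.52%) and 13 (21 of 577, 3.64%). They were least frequent on chromosome 11 (10 of 1256, 0.796%). The runs above lay on chromosomes 7, 3 and 13, and also on 4 and 6. Chromosomes 4 (23 of 991, 2.32%) and 6 (17 of 810, 2.10%) had shares near the background.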

How the data were processed

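The deposited table held raw counts of reads within 1 kb of each transcription start for the 4 libraries, their sums, and a ratio, the ChIP sum divided by the input sum, made by the authors with no scaling for library size. Per the labels and the study's methods, reads were trimmed with Trim Galore 0.4.2 and cutadapt 1.9.1, aligned to GRCm38 with Bowtie2 2.2.7 and counted with SeqMonk. The annotation used and any removal of duplicates are not given in the sources used here. Every row had at least 21 summed input reads, and the deposited ratio equalled the quotient in all 26354 rows (tolerance 1e-06).

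The members, gene lists, tests and named genes were chosen with earlier results of these data known, and 3 lists (salivary, pseudogene, placenta) were corrected after the symbols of the table were seen. Groups of members in no list were formed after seeing them. Named genes were the 20 members with the highest lower Wilson limit, up to 5 per list by ChIP reads, those at the cut-off, the 10 lowest p between experiments, the control and cell type markers (Adgre1 was not in the table) and runs of 4 or more members; other genes were named after their values were seen, and a few genes are not reported here.

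Wilson 95% intervals, percentiles and the exact conditional test (Fisher's noncentral hypergeometric, two-sided, Benjamini-Hochberg) were computed with Python 3.11.15, scipy 1.17.1, numpy 2.4.6 and pandas 2.3.3; the test was tested on simulated data. Positions came from GENCODE M21 by symbol (313 members) or an older symbol (22), and 29 members were not placed. RefSeq promoter sequences matched the GRCm38.p6 genome in all 66 entries checked. A symbol match does not show that the authors used the same start. Experiments were given as independent, 1 ChIP each, so no value has a replicate SD beyond the pair of experiments.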

Additional observations from a re-analysis of the deposited data

Results flagged for a closer look

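At 3 members the ratio of ChIP to input differed between the experiments by the exact conditional test. The ratio in v102 relative to the library totals was 8.72 times that in v134 at mmu-mir-689-2, 9.29 times at Rbmxl2 and 1.44 times at Sfi1. The first pair rested on v102, with 136 and 46 ChIP reads against 22 and 7 in v134, and Sfi1 was high in both experiments. With 1 ChIP and 1 input library in each experiment, a difference between the experiments cannot be told apart from one between single libraries.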

How the results depend on the processing

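The number of members was 158 at a cut-off of 1.0, 120 where each input had to hold 20 or more reads and 1037 where the lower Wilson limit had to reach the table's 75th percentile. It stayed within 1.5 times at a cut-off of 0.7, with library-scaled ratios and without shared windows, and lay between 383 and 414 without 1 of the experiments. The share of members in the top quartile of both experiments, 98.9%, became 82.7% for the top decile and moved by less than its 95% interval under the other settings, among them a minimum of 10 ChIP reads in each experiment, which was chosen after seeing the data. The share chosen in 1 experiment and found in the top quartile of the other was 94.1% where each input held 20 or more reads. Setting the null by the median promoter left 1 member that differed between the experiments; without mitochondrial rows, which hold 88469 and 81630 input reads, there were 3, and with 20 reads in each input 2. The cause of these changes was not tested, apart from the smaller or larger number of promoters that a stricter or wider rule keeps. By tissue group, of 12 groups with 10 or more members, the count moved by over 1.5 times in 11 at a cut-off of 1.0 and in 5 at 0.7, and without 1 of the experiments in small RNA genes only (19 without v102). A similar count did not mean the same promoters. Without v134 the immune group held 28 promoters, which included 14 of its 27 members. The nervous system group then held 29, with 13 of its 21 members, and the placental group 13, with 12 of its 15. The higher experiment turned from v102 (225 members) to v134 when scaled by the median promoter (173 for v102), chosen after seeing the data. Median GC content was 47% in 300-base windows, which 247 members had, against 59.3% at 12074 promoters outside the families, and 43.6% without shared windows.

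No paired analysis was possible because the experiment number, which pairs each ChIP with its input, is itself what the test compares, with 1 ChIP and 1 input library in each.

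Depth limits single promoters: the median member had 50 ChIP and 51.5 input reads in all, and the lower interval limit of most members fell below the cut-off.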
